A study of Danio rerio with 2 samples.

Results

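Transcripts of the FGF, EGF, neuregulin, PDGF, VEGF, HGF and midkine growth factors, of their receptors and of their Sprouty and Spred inhibitors were measured in the forebrain choroid plexus of adult zebrafish. The choroid plexus is the secretory epithelium, with its vessels and stroma, that sits in the brain ventricle. The members were all gene entries of the authors' table whose symbols fit fixed name patterns for these families, such as fgf followed by a digit or r, erbb, nrg with a digit, pdgf, mdka, mdkb or spry. For VEGF the patterns took only the B, C and D ligands, and FGF binding proteins were not included. This gave 83 of the 25432 gene entries in the files, under 81 distinct symbols. By symbol, 46 were ligands, 21 receptors, 3 receptor-like proteins without a kinase and 7 inhibitors. The other 6 share only the letters. They are fgfr1op and fgfr1op2, named after a fusion partner of the FGF receptor, and spryd3, spryd4, spryd7a and spryd7b, named after the SPRY protein domain and not after Sprouty. A further 10 entries carry such a symbol only in a reference table of gene names (vegfbb and 9 FGF entries, among them fgf7, fgf17 and fgf23). They were at 0 counts in both libraries and are not among the members.

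The 2 libraries formed 1 group. Each came from a pool of 12 to 19 whole tissues after the pineal gland had been taken off. The donors were untreated adults of AB and nacre (mitfa-/-) genotype, aged 6 to 8 months and longer than 3 cm. The libraries are called replicates 1 and 2 here, after the batch numbers in their titles. The labels do not say how AB and nacre fish were divided between the pools, nor which of the RNA purification methods, glycogen or spin column, served which pool. Neither strain nor purification could be compared, and any difference between the replicates is also one between batches.

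Most of these growth factors act on receptor tyrosine kinases in the membrane of a cell, which pass the signal through the docking protein Frs2 or adaptors such as Grb2 to RAS and the kinase ERK. ERK in turn switches on genes such as etv4, etv5 and dusp6, and Sprouty and Spred proteins damp the pathway. Midkine and pleiotrophin are small heparin-binding factors that in mammals act through several receptors, among them ALK, PTPRZ1, LRP1 and syndecans. In mice, FGF signals pattern the dorsal midline of the forebrain from which the choroid plexus arises.

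The libraries held 11712489 and 13446356 expected counts. Levels are TPM, a transcript share that allows for gene length, so that genes can be compared. Of the fixed marker genes of choroid plexus epithelium, 11 of 11 reached 1 TPM in each library, with a summed level of 39174 and 42691 TPM. Stromal and vascular markers were present too: 10 of 12 fibroblast and meninges genes (429 and 422 TPM summed), 10 of 10 endothelial genes (155 and 180 TPM) and 8 of 9 mural genes (113 and 106 TPM). The fibroblast sum came mostly from mmp2 and loxl1, with lum at 0.07 and 0 TPM. Macrophage genes summed to 559 and 535 TPM and radial glia genes to 3489 and 3424 TPM. The macrophage sum came mostly from cd74a, lgmn, apoeb and cd74b. In that list csf1ra was at 8.99 and 9.29 TPM and mpeg1.1 at 2.31 and 3.17 TPM. Most of the radial glia sum came from glulb, glula, fabp7a and s100b. In the same list gfap was at 4.17 and 3.14 TPM, her4.1 at 2.99 and 0.24 TPM and nes at 0 and 0.01 TPM. Pigment cell genes summed to 159 and 207 TPM, most of it from pmelb (123 and 169 TPM), with mitfa at 1.43 and 0.19 TPM. Oligodendrocyte genes summed to 23.9 and 18.0 TPM, with olig1 at 0 in both. In this whole tissue, fewer cells of a type and less RNA per cell cannot be told apart. Pineal and photoreceptor markers set the libraries apart, with 3199 TPM in replicate 1 and 48.3 TPM in replicate 2.

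Detection was set at 1 TPM or more in each library. By this rule 49 of the 83 members were detected, or 59.0%, against 66.1% of all genes of the authors' table. At 10 TPM or more in each there were 26 members (31.3%, against 31.9% of all genes), and 3 reached 100, where 3.78% of all genes did. The median member stood at a mean of 2.68 TPM and the median gene of the table at 4.88 TPM. The members as a whole were therefore below the background in detection at 1 TPM and in median level, and near it at 10 TPM. These counts include the 6 members that share only letters, of which 6 were detected and 5 reached 10 TPM in each library. By role, of the ligands 20 of 46 were detected, of the receptors 14 of 21, of the inhibitors 6 of 7, and of the receptor-like proteins 3 of 3. Median levels were 0.91 TPM for ligands, 9.62 TPM for receptors and 11.4 TPM for inhibitors. Of the remaining members, 5 ligands were above 1 TPM in replicate 1 alone and 1 was so in replicate 2 alone.

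**Figure D1:**
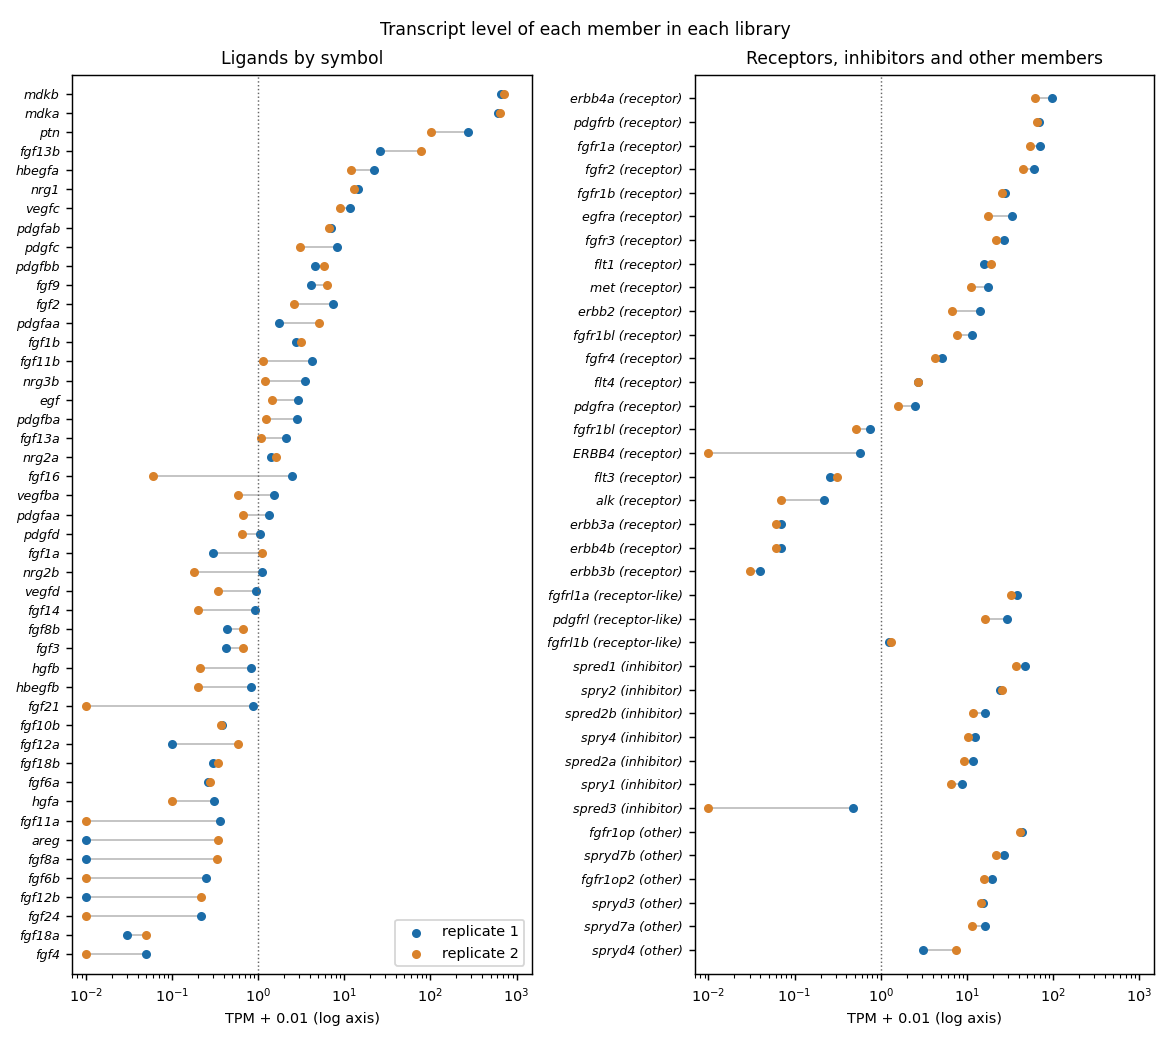
Level of each of the 83 members in replicate 1 (blue) and replicate 2 (orange), as TPM + 0.01 on a log axis, with ligands on the left and all other members on the right. The dotted line marks a TPM of 1. The ligands mdkb, mdka and ptn stand above 100 TPM in both libraries, while most FGF ligands lie below the line.

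The midkines and pleiotrophin dominated the ligands. The midkine gene mdkb (ENSDARG00000020708) stood at 653 TPM in replicate 1 and 715 TPM in replicate 2, a mean of 684 ± 44.4 TPM (SD, n = 2). Its duplicate mdka (ENSDARG00000036036) was at 611 and 642 TPM, or 626 ± 21.5 TPM. The copies were thus transcribed at almost the same level in each library, and mdkb was the higher in both. In the order of all genes by TPM, mdkb held rank 189 and 173 and mdka rank 195 and 187. Pleiotrophin, ptn (ENSDARG00000102340), was at 274 TPM in replicate 1 and 102 TPM in replicate 2. Together these 3 genes held 91.6% and 90.2% of all ligand TPM in the libraries. The other 43 ligand entries summed to 142 and 159 TPM. These totals include fgf11 to fgf14, whose products are not secreted. Without them the other ligands summed to 108 TPM in replicate 1 and 79.0 TPM in replicate 2.

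Transcripts of the receptors that bind midkine in mammals were unequal. The receptor kinase gene alk was close to absent, with 0.21 and 0.06 TPM from 16 and 6 expected counts, and its relative ltk was at 3.41 and 1.93 TPM. The receptor phosphatase genes ptprz1a and ptprz1b were low as well, at 4.54 and 2.58 TPM and at 2.19 and 0.85 TPM. The lipoprotein receptor gene lrp1aa was at 439 and 439 TPM and its duplicate lrp1ab at 19.4 and 13.9 TPM. The syndecan genes sdc2 and sdc4, which encode heparan sulfate carriers, were at 136 and 141 TPM and at 132 and 74.1 TPM. Among these candidate partners, the abundant transcripts in both libraries were those of lrp1aa, sdc2 and sdc4, and the kinase and phosphatase genes were low. Transcript levels do not show which of them the ligands bind here.

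FGF showed the opposite arrangement, with receptors well above secreted ligands. The receptor gene fgfr1a (ENSDARG00000011027) was at 71.3 and 53.5 TPM, or 62.4 ± 12.6 TPM (SD, n = 2). Close to it stood fgfr2 (ENSDARG00000058115) at 60.0 and 44.3 TPM, or 52.1 ± 11.1 TPM. The duplicate fgfr1b was at 27.9 and 25.6 TPM and fgfr3 at 26.9 and 21.9 TPM. Their ranges overlapped, although fgfr1b was the higher in each library. Of the 2 entries named fgfr1bl, 1 was at 11.5 and 7.75 TPM and the other at 0.74 and 0.50 TPM. The receptor gene fgfr4 was lowest of the numbered receptors at 5.18 and 4.27 TPM. By share of all fgfr TPM, fgfr1a held 34.5 ± 0.810%, fgfr2 28.8 ± 1.01%, fgfr1b 15.0 ± 1.77%, fgfr3 13.5 ± 0.487% and fgfr4 2.63 ± 0.114% (SD, n = 2). These shares differed little between the libraries although the summed level was 204 TPM in replicate 1 and 158 TPM in replicate 2. The receptor-like gene fgfrl1a, whose product binds FGF but has no kinase domain, was at 37.9 and 32.1 TPM.

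Of the secreted FGF ligands among the members, 3 of 16 were detected, against 66.1% of all genes of the authors' table. None reached 10 TPM, where 31.9% of all genes did in both libraries. The gene fgf9 was at 4.05 and 6.26 TPM, but from only 6 and 11 expected counts on a short gene model. Its exact Poisson 95% intervals ran from 1.49 to 8.82 TPM and from 3.12 to 11.2 TPM, and here and below such intervals cover counting error only. The gene fgf2, a classical heparin-binding FGF, was at 7.42 and 2.59 TPM, and fgf1b at 2.76 and 3.17 TPM. Its duplicate fgf1a was at 0.29 and 1.1 TPM. Patterning ligands of the embryonic brain were below 1 TPM in each library. Of these fgf8a had 0 and 7 expected counts, fgf8b 8 and 15, and fgf3 6 and 12. A count of 0 allows up to 3 counts, which for fgf8a is 0.290 TPM in replicate 1. The hormone-like fgf21 had 3 counts in replicate 1 and 0 in replicate 2. Klotho genes, whose products serve hormone-like FGFs as co-receptors, were also near 0, with kl at 0.20 and 0.21 TPM and klb at 0 and 0.07 TPM. Summed over the 16 genes, secreted FGF ligands came to 20.1 and 15.8 TPM, and the receptors were 10.1-fold and 9.98-fold higher. Of these sums fgf9 gave 4.05 and 6.26 TPM from 6 and 11 counts. The folds, and their closeness in the libraries, thus rest in part on few reads.

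The most abundant gene with an FGF ligand's symbol was fgf13b (ENSDARG00000056633), at 25.7 TPM in replicate 1 and 77.1 TPM in replicate 2. The products of fgf11 to fgf14 genes are not secreted and in mammals bind voltage-gated sodium channels inside the cell. These genes were left out of the secreted FGF ligands but are counted in the ligand totals above. Of their 7 entries 3 were detected, against 66.1% of all genes of the authors' table. Besides fgf13b these were fgf11b at 4.24 and 1.12 TPM and fgf13a at 2.12 and 1.08 TPM. With them the FGF sum would be 53.5 and 96.1 TPM, most of the excess from fgf13b.

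**Figure D2:**
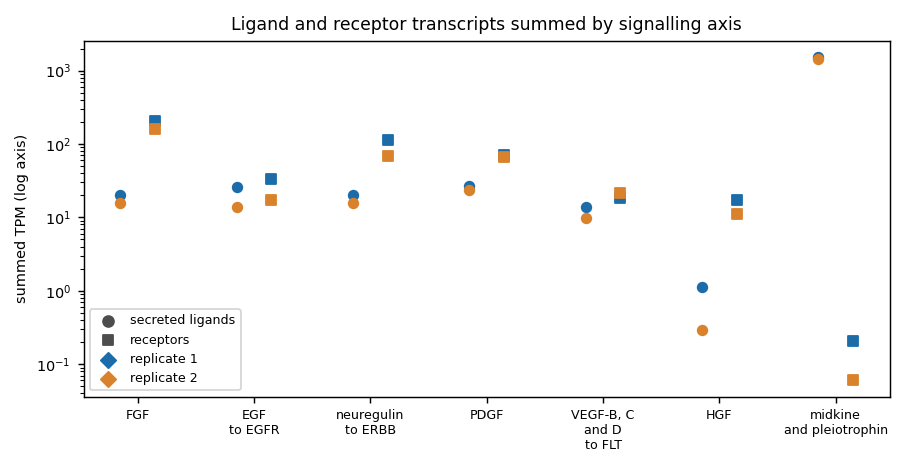
Summed TPM (log axis) of the secreted ligands (circles, without fgf11 to fgf14) and of the receptors (squares) of each signalling axis in replicate 1 (blue) and replicate 2 (orange). Among the members, receptors lie above ligands in both libraries for FGF, EGF, neuregulin, PDGF, VEGF and HGF. Ligands lie far above the receptor alk for midkine and pleiotrophin. The sums leave out genes that are not members, among them the ligand genes btc, tgfa, vegfaa and vegfab and the receptor genes kdr and kdrl. For EGF and VEGF the order therefore holds for the plotted members only.

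Within the EGF receptor family, 1 gene carried most of the transcripts. The neuregulin receptor gene erbb4a (ENSDARG00000063207) was at 97.5 and 62.0 TPM, or 79.8 ± 25.2 TPM (SD, n = 2), and was the most abundant receptor among the members by its mean. It held 66.8% and 72.0% of all egfr and erbb TPM. The EGF receptor gene egfra was at 33.6 and 17.3 TPM, and erbb2, the partner chain without a ligand of its own, at 14.2 and 6.64 TPM. All 3 were higher in replicate 1, with log2 ratios of replicate 2 over replicate 1 of -0.39, -0.66 and -0.74 once the median of all genes was removed. The second neuregulin receptor, erbb3, was close to absent in both copies, with 3 and 2 expected counts for erbb3a and 1 and 1 for erbb3b. Its counterpart erbb4b had 1 and 1. A further entry listed as ERBB4 (ENSDARG00000090408) had 21 counts in replicate 1 and 0 in replicate 2.

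The ligands of this family were lower. Heparin-binding EGF, hbegfa (ENSDARG00000075121), was at 22.3 and 11.9 TPM, or 17.1 ± 7.38 TPM (SD, n = 2). The neuregulin gene nrg1 (ENSDARG00000104314) was at 14.4 and 12.9 TPM, or 13.6 ± 1.11 TPM, and nrg3b was at 3.52 and 1.18 TPM. The gene egf itself was at 2.93 and 1.46 TPM, and areg, which encodes amphiregulin, had 0 and 2 expected counts. Neuregulins summed to 20.5 and 15.8 TPM and the erbb receptors to 112 and 68.7 TPM, 5.50-fold and 4.34-fold higher. Only nrg genes were counted as ligands here, and hbegfa was set against egfra alone. The folds hold for this assignment only. For EGF-type ligands and egfra the sums were closer on the TPM scale, at 26.1 and 13.9 TPM against 33.6 and 17.3 TPM. These sums leave out the EGF-type ligand genes btc (3.90 and 3.49 TPM) and tgfa (3.38 and 1.82 TPM), which are not members. Which side is higher is therefore not settled for this axis in TPM. On the CPM scale, without allowance for length, the member sums were 34.7 and 19.8 against 125 and 76.3. The sheddase genes adam10a and adam17a, whose products release such ligands from the cell surface in mammals, were at 130 and 105 TPM and at 24.5 and 20.2 TPM. The gene adam17a was chosen after its values were seen.

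Among PDGF signalling genes the receptor gene pdgfrb, often used as a marker of the mural cells of vessels, was the most abundant. The gene pdgfrb (ENSDARG00000100897) was at 67.9 and 64.6 TPM, or 66.3 ± 2.35 TPM (SD, n = 2). The highest mural markers listed were notch3, at 36.5 and 20.8 TPM, and acta2, at 27.35 and 28.83 TPM. The highest fibroblast marker listed, mmp2, was at 160 and 155 TPM, but col1a2 was at 8.38 and 11.73 TPM and lum at 0.07 and 0 TPM. By mean level, the median marker was at 12.05 TPM in the mural list and 10.5 TPM in the fibroblast list. Which cells carried pdgfrb transcripts was not tested. The related receptor gene pdgfra was at 2.50 and 1.58 TPM, far below it in both libraries. Ligand transcripts were spread over several genes. The gene pdgfab was at 7.01 and 6.67 TPM, pdgfc at 8.15 and 3.09 TPM and pdgfbb at 4.54 and 5.88 TPM. In mammals PDGF-B binds both receptors, while PDGF-A binds only the alpha receptor. The ligand sum was 26.6 and 23.3 TPM and the receptor sum 70.4 and 66.2 TPM. The receptor-like pdgfrl was at 29.3 and 16.3 TPM.

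Among the members, the ligand and receptor sums of the VEGF and HGF axes were lower than those of PDGF. For VEGF these sums leave out vegfaa, vegfab, kdr and kdrl, which are given below. The gene vegfc, a ligand for lymphatic and venous endothelium, was at 11.5 and 9.01 TPM. Its receptor gene flt4 was at 2.67 and 2.69 TPM. The VEGF receptor gene flt1 was at 15.7 and 19.1 TPM, and its ligand vegfba was at 1.54 and 0.57 TPM. Outside the members, the endothelial VEGF receptor genes kdrl and kdr were at 30.4 and 33.6 TPM and at 12.8 and 15.7 TPM, and the ligand genes vegfab and vegfaa at 27.1 and 21.9 TPM and at 8.41 and 4.63 TPM. The HGF receptor gene met was at 17.4 and 11.2 TPM, or 14.3 ± 4.38 TPM (SD, n = 2). Neither of its ligand genes was detected, with 9 and 2 expected counts for hgfa and 13 and 4 for hgfb. The cytokine receptor gene flt3 was at 0.25 and 0.30 TPM.

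Inhibitors of the pathway were detected for 6 of 7 genes, against 66.1% of all genes of the authors' table. The gene spred1 (ENSDARG00000041449) was at 46.6 and 36.9 TPM, or 41.8 ± 6.86 TPM (SD, n = 2). Next came spry2 at 24.5 and 25.9 TPM, spred2b at 16.1 and 11.7 TPM, spry4 at 12.5 and 10.4 TPM, spred2a at 11.7 and 9.19 TPM and spry1 at 8.81 and 6.53 TPM. Only spred3 was not detected, with 15 counts in replicate 1 and 0 in replicate 2. Their sum was 121 and 101 TPM. The members that share only letters with these families were fgfr1op at 43.9 and 40.8 TPM, spryd7b at 26.7 and 21.8, fgfr1op2 at 19.4 and 15.6, spryd3 at 15.2 and 14.4, spryd7a at 16.3 and 11.3 and spryd4 at 3.10 and 7.5 TPM.

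Beyond the first 3 genes, the order of the members was not sharp. Of 37 neighbours in the order of mean TPM, from mdkb down to fgfr4, 32 had ranges that overlapped between the libraries. This rule sets values of different libraries beside each other. Some overlapping neighbours, such as spred1 and fgfrl1a, kept the same order in each library. No such share was computed over all genes. The genes erbb4a, pdgfrb, fgfr1a and fgfr2 overlapped from each to the next, although fgfr1a was above fgfr2 in each library. A clear step lay between mdka and ptn, whose highest value was 274 TPM against a lowest of 611 TPM for mdka. The threshold of 1 TPM fell between fgf13a, fgf11b and nrg3b, whose lower values were 1.08, 1.12 and 1.18 TPM, and the second pdgfaa entry, pdgfd and vegfba, whose lower values were 0.65, 0.64 and 0.57 TPM. Of the members, 10 were at 0 counts in 1 library and 20 had at most 10 expected counts in each, so their values rest on few reads.

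Zebrafish carry duplicate copies of many of these genes, with symbols ending in a and b, and in several pairs 1 copy held nearly all transcripts. Among 20 pairs of such symbols, 11 had a copy with a mean of at least 5 TPM. Of these 11, 5 differed by at least 4-fold the same way in each library on the TPM + 1 scale, against 38.6% of all 1765 such pairs in the authors' table. This share was near the background. Among the 5, pdgfra and pdgfrb are not duplicates but separate receptors, which leaves 4 of 10. In these the copy that prevailed was erbb4a over erbb4b (0.06 and 0.05 TPM), fgfrl1a over fgfrl1b (1.22 and 1.3 TPM), hbegfa over hbegfb (0.81 and 0.19 TPM) and fgf13b over fgf13a. In the other direction, the pairs mdka and mdkb, spred2a and spred2b, spryd7a and spryd7b, and pdgfaa and pdgfab stayed within 2-fold of each other in each library on that scale. The receptor copies fgfr1a and fgfr1b differed by a log2 of 1.32 in replicate 1 and 1.03 in replicate 2. The symbol pdgfaa stands for 2 entries whose counts are fractional and sum to 33 and 78, so reads were divided between them and only the sum, 3.06 and 5.80 TPM, is read here.

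**Figure D3:**
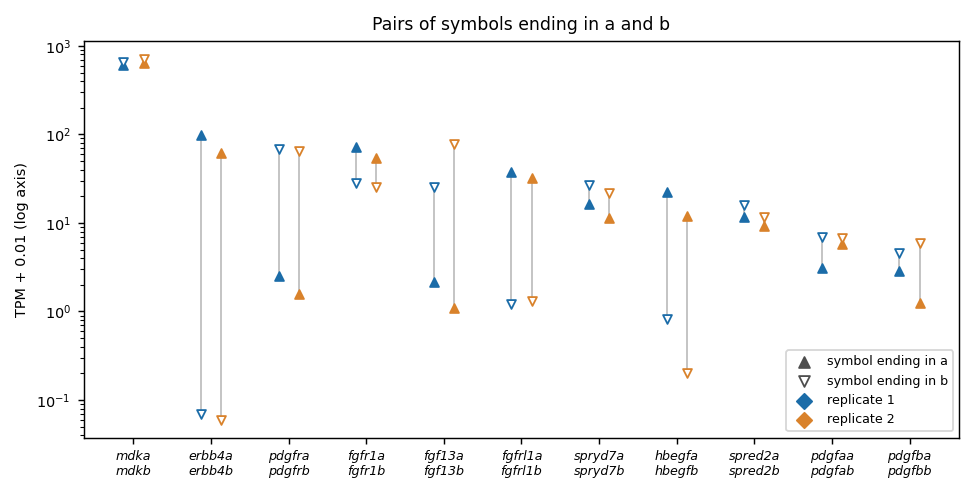
TPM + 0.01 (log axis) of the copy whose symbol ends in a (filled) and in b (open) for the 11 pairs with a copy at a mean of at least 5 TPM, in replicate 1 (blue) and replicate 2 (orange). The copies of midkine lie together, while those of erbb4, fgfrl1 and hbegf lie far apart in both libraries.

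Between the libraries, most members differed little. The ratio is log2 of TPM + 1 in replicate 2 over replicate 1, after removal of the median shift of all genes (-0.25). Of 51 members with a mean of at least 1 TPM, 6 differed by at least 2-fold, or 11.8%, against 8.77% of all 15125 such genes. Of these 3 were higher in replicate 1 (5.22% of all genes were) and 3 higher in replicate 2 (3.56% of all genes). Without removal of the shift the split was 6 and 3. The median absolute log2 ratio was 0.33 for the members and 0.30 for all genes.

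Higher in replicate 1 were ptn, fgf11b and fgf16. For ptn the expected counts were 2060 and 1099 and the log2 ratio was -1.16, and scaling by counts alone brought it to -0.93 with TMM factors, inside 2-fold. For fgf11b the counts were 251 and 83 and the log2 ratio was -1.05. The ligand gene fgf16 had 36 counts in replicate 1 and 1 in replicate 2, a ratio of counts per library total of 41.3 with a Clopper-Pearson 95% interval from 6.96 to 1677. In the same direction, 11 of 11 pineal and photoreceptor markers were at least 2-fold higher in replicate 1, led by rcvrnb at 862 and 5.50 TPM. Neuron markers summed to 65.6 and 38.5 TPM, with 9 of 12 above 1 TPM in replicate 1 and 2 of 12 in replicate 2. Of these sums map2, which was not higher in replicate 1, gave 29.4 and 31.8 TPM. Of the 21019 genes of the authors' table, 15348 reached 1 TPM in replicate 1 and 14449 in replicate 2. Among neuron markers with a mean of at least 1 TPM, 2 of 6 (snap25b and syt1a) were at least 2-fold higher in replicate 1. At least 2-fold higher in replicate 1 were also 2 of 8 radial glia markers (slc1a2b and her4.1) and 1 of 10 macrophage markers (apoeb). Of all genes with a mean of at least 1 TPM, 5.22% were so. Other markers of these lists were higher in replicate 2, such as fabp7a (687 and 919 TPM) and cd74a (133 and 197 TPM). The median log2 ratio was -0.095 for the radial glia list and 0.30 for the macrophage list. The part of these cell types in the member values was not tested.

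Higher in replicate 2 were fgf13b, spryd4 and the first pdgfaa entry, at log2 ratios of 1.80, 1.31 and 1.42. By counts alone fgf13b differed less. Its counts were 385 and 860, a ratio of counts per library total of 1.95 with an interval from 1.72 to 2.20. That ratio has no shift removed, and with TMM factors the log2 ratio was 1.11, still past 2-fold. The effective length of fgf13b was 1680 bases in replicate 1 and 993 bases in replicate 2. For pdgfaa the sum of its entries gave a log2 ratio of 0.997, just inside 2-fold. For spryd4 the counts were 21 and 63. Erythrocyte markers moved the same way, with 1764 and 5923 TPM summed and 2 of 7 at least 2-fold higher. So were 2 of 7 pigment cell markers, 1 of 10 endothelial markers (cldn5b) and 1 of 10 fibroblast markers (col1a1b). Of all genes with a mean of at least 1 TPM, 3.56% were so. The median log2 ratios of the last 3 lists were 0.48, 0.42 and 0.29. Some of their markers were higher in replicate 1, such as ltk (3.41 and 1.93 TPM) and loxl1 (147 and 106 TPM). The part of these cell types was not tested.

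**Figure D4:**
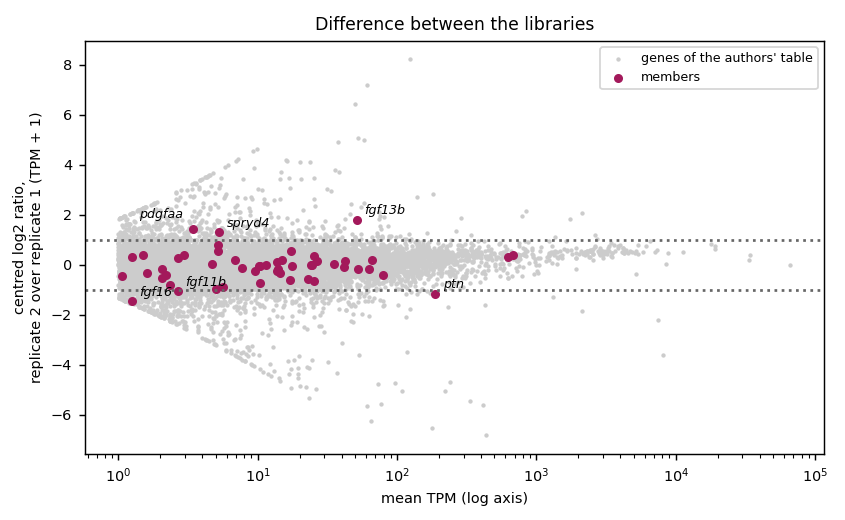
Centred log2 ratio of TPM + 1, replicate 2 over replicate 1, against mean TPM (log axis) for all genes of the authors' table with a mean of at least 1 TPM (grey) and for the 51 members (purple). Dotted lines mark 2-fold, and the 6 members beyond them are named.

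Other genes of the pathway were mostly transcribed. Of 34 matched genes of the RAS to ERK cascade, 29 were detected. The share was 54.6% for all genes in the files and 66.1% for the authors' table. The exchange factor gene sos1 was at 120 and 131 TPM. The kinase gene mapk3 was at 63.4 and 61.2 TPM, the adaptor gene grb2b at 58.0 and 49.0 TPM and the MEK gene map2k2a at 25.9 and 25.8 TPM. The docking protein genes frs2b and frs2a, chosen after their values were seen, were at 13.3 and 16.2 TPM and at 7.61 and 6.17 TPM. Of 30 cascade genes with a mean of at least 1 TPM, only grb2a (8.29 and 16.5 TPM) differed by 2-fold between the libraries. Of all such genes 8.77% did.

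Genes used as readouts of FGF and ERK activity were detected for 19 of 22, against 54.6% of all genes in the files and 66.1% of the authors' table. The ETS factor genes etv5a, etv4 and etv5b were at 73.4 and 103 TPM, at 75.1 and 79.6 TPM and at 33.7 and 28.5 TPM. The ERK phosphatase gene dusp6 was at 46.6 and 44.7 TPM, close together in the libraries, and the FGF antagonist gene il17rd at 8.11 and 5.22 TPM. The early response gene egr1 was at 124 and 90.5 TPM and dusp1 at 49.4 and 59.5 TPM, and both respond to many other stimuli, tissue handling among them. The phosphatase genes dusp2 (24.9 and 6.09 TPM) and dusp4 (8.43 and 2.42 TPM) were at least 2-fold higher in replicate 1. They were 2 of 19 response genes with a mean of at least 1 TPM, where 5.22% of all such genes were higher in replicate 1.

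Heparan sulfate, the sugar chain that FGF, heparin-binding EGF and midkine need or use at the cell surface, was represented by 29 detected genes of 32. The share detected was 54.6% for all genes in the files and 66.1% for the authors' table. Besides sdc2, the syndecan gene sdc4 was at 132 and 74.1 TPM, the glypican gene gpc4 at 72.8 and 59.2 TPM, the matrix proteoglycan gene agrn at 65.9 and 44.8 TPM and the sulfatase gene sulf1 at 49.7 and 50.5 TPM. None of the 30 genes with a mean of at least 1 TPM differed by 2-fold between the libraries, where 8.77% of all such genes did.

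**Figure D5:**
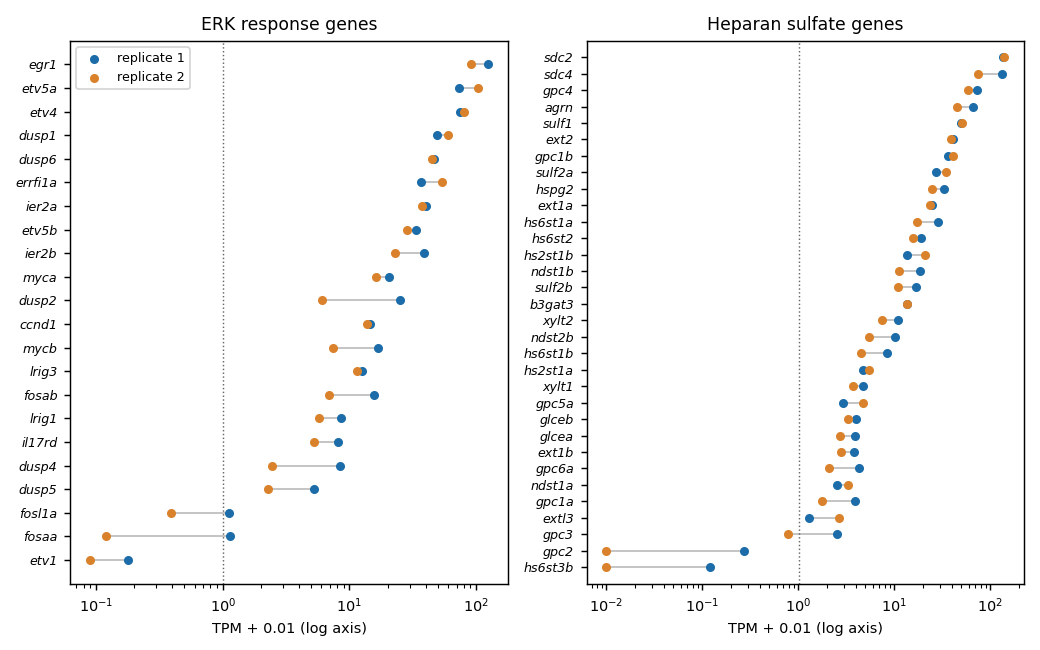
TPM + 0.01 (log axis) of the matched ERK response genes (left) and heparan sulfate genes (right) in replicate 1 (blue) and replicate 2 (orange), with a dotted line at a TPM of 1. Of these genes 19 of 22 and 29 of 32 lie at or above the line in both libraries.

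Of 38 further co-receptors, ligands and processing genes, 28 were detected, against 54.6% of all genes in the files and 66.1% of the authors' table. The highest was fgfbp1b (1077 and 906 TPM), a gene of the FGF binding protein family whose mammalian members release FGF from the matrix, and it stood above every member of the growth factor set in each library. The neuropilin genes nrp1a and nrp2b, co-receptors for VEGF, were at 94.2 and 59.7 TPM and at 74.3 and 62.7 TPM. The protease inhibitor gene spint1a, at 0.48 and 2.45 TPM, was the 1 gene of this list that differed by 2-fold. It was 1 of 30 with a mean of at least 1 TPM, where 8.77% of all such genes differed so.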

How the data were processed

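Gene-level RNA-seq values of 2 libraries of total RNA were used. The submitters' processing notes name the aligner STAR, RSEM 1.3.3 and genome build GRCz11. Which annotation was used is not stated there. Expected counts estimated by RSEM were deposited by the authors, per the file headers (4.52% and 4.20% were not whole). The authors also deposited TPM, which divide counts by effective length and scale each library to the same sum. Per the file headers, length and effective length in bases stand beside these values. The authors' table of mean TPM gave the gene names. It differed from the mean of the libraries by at most 0.005 and omits 4413 genes whose mean was at most 0.005 TPM, which raises shares of detected members.

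The libraries form 1 group, so values are described without a statistical test. The labels do not say which purification or strain went into which pool. CPM, counts scaled to the library total, were computed from expected counts, with TMM factors from edgeR 4.0.16, for which counts were rounded. Other steps used Python 3.11.15 with numpy 2.4.6, pandas 2.3.3 and scipy 1.17.1, and the ratio rule was tested on simulated data. The fold between libraries was 2 and between copies 4, with a pseudocount of 1 TPM. Gene lists were matched by symbol, and 4, 1, 5 and 5 symbols of the cascade, response, heparan sulfate and co-receptor lists matched no gene. Marker symbols all matched. Named genes were every member at a mean of at least 5 TPM, those past 2-fold, unequal pairs, members beside the detection threshold and the 5 most abundant of each pathway list with a fixed set of genes, of which 1 is not reported here. Others, such as low ligands and receptors, were named after their values were seen. The members and lists were chosen with earlier results of these data known. No coordinates or sequences are given, because no genome of GRCz11 and no sequence table was used here.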

Additional observations from a re-analysis of the deposited data

How the results depend on the processing

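Counts of detected genes depended mainly on the threshold. At 5 TPM or more in each library, 32 members, 8 ligands, 18 heparan sulfate genes and 18 co-receptor and processing genes passed, while the counts of receptors (11), inhibitors, cascade genes and response genes stayed within 1.5 times. A threshold of 0.5 TPM (53 members), 1 CPM (50), 10 expected counts (50) and either library alone (50 to 54) moved no count of detected genes by that much, nor did leaving out fgf11 to fgf14 (17 ligands), chosen after seeing the data. The number of members that differed 2-fold either way between the libraries was 10 of 51 with a pseudocount of 0.1 TPM, against 13.4% of all genes. Of these 10, 7 were higher in replicate 1. The number was 3 of 37 at a mean of at least 5 TPM, against 6% of all genes, and from 6 to 9 otherwise. Uncentred, 6 of 9 were higher in replicate 1. Of 24 ratios of the 6 named members under other scalings, 22 stayed past 2-fold and 2 did not, both for ptn (-0.93 and -0.91 with TMM and median-of-ratios factors), and none changed sign. Unequal pairs numbered 4 to 7. Sums of ligands and receptors moved with CPM in place of TPM, most for the long receptor genes (FGF receptors 181 to 641, PDGF receptors 68.3 to 348, egfra 25.5 to 101), and outside midkine and pleiotrophin receptors stood further above ligands than in TPM. No paired analysis was possible because both libraries belong to 1 group.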

Other observations

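The effective length that the authors' files give for a gene differed by at least 1.5-fold between the libraries for 8 of 83 members, or 9.64%, against 4.64% of all genes of the authors' table. They were fgf13b, nrg2b, fgf10b, fgf12a, hgfa, areg, fgf8a and erbb3a. Of these only fgf13b had a mean of at least 1 TPM, and among genes above that level 1 of 51 members and 2.29% of all genes differed so. For fgf12a, 2 expected counts gave 0.09 TPM in replicate 1 and 1 count gave 0.58 TPM in replicate 2.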
